A study of Mus musculus with 16 samples.

Results

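The Toll-like receptor genes were followed in adherent mouse peritoneal cells, with and without lipopolysaccharide (LPS) and in cells labelled fld and control cells. They were taken as the 10 genes Tlr1 to Tlr9 and Tlr13, found by gene symbol, synonym or accession on the array. Of these, 9 had a probe, 11 probes in all, and all 9 passed the filter that left 17465 features for the tests. Tlr13, a receptor for bacterial ribosomal RNA in mice, had no probe under these names and was not analysed here. Per the labels, cells were taken from the peritoneum of male mice of the strain BALB/cByJ-Lpin1fld/J, left to adhere, washed, and kept without serum during treatment. The 4 groups were cells labelled fld given LPS at 100 ng/ml over 5 h, the same cells left untreated, cells of heterozygotes (called control) given the same LPS, and control cells left untreated, with 4 arrays each. The mutation fld (fatty liver dystrophy) lies in Lpin1, which encodes lipin-1, an enzyme that turns phosphatidate into diacylglycerol, and the controls carry 1 copy of it. The labels used here give no age. They name 4 mice per genotype without tying arrays to mice, so p-values measure the spread between these arrays, which may be technical.

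Toll-like receptors are membrane proteins that bind molecules of microbes and signal through a shared intracellular domain. Tlr1, Tlr2, Tlr4, Tlr5 and Tlr6 act mainly at the cell surface and bind lipids, lipoproteins or flagellin, whereas Tlr3, Tlr7, Tlr8, Tlr9 and Tlr13 act in endosomes and bind nucleic acids. Most use the adaptor Myd88, Tlr3 uses Ticam1, and Tlr4, the receptor for LPS, uses both. Macrophages of the peritoneum carry many of these receptors, and signals from one receptor change the transcripts of others.

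Some arrays went against their labels. On 3 of the 4 Lpin1 probes, replicates 1 to 3 of both groups labelled fld lay between -7.35 and -4.58 and were, with 1 exception, not well above background, whereas the control arrays lay between -4.43 and -1.99. Both arrays labelled fld replicate 4 lay between -3.54 and -1.36 on these probes, within or above the control range of each. The group is therefore called labelled fld, and the receptor, partner and marker gene tests were also run without both replicate 4 arrays, with values given where a call of a gene named here changed. Ranges and likeness of profiles include all 16 arrays. The array of fld with LPS replicate 4 was also the dimmest of the 16, with a 75th percentile of processed intensity of 189. The rest lay between 251, on fld with LPS replicate 2, and 627, on control with LPS replicate 3. Each group lay on its own slide, and the 2 cannot be told apart here. All 9 macrophage markers examined were well above background on all 16 arrays. All 6 B cell markers and all 6 mast cell markers were as well, so this presence does not single out macrophages. B cells also carry Toll-like receptors.

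Levels are given as log2 of the processed signal relative to the 75th percentile of the same array, so 0 is that percentile, and replicates are listed from 1 to 4. A level of one gene was not set against that of another, since each probe binds with its own efficiency. A gene was called at an adjusted p under 0.05 in limma over all 17465 features, with each change taken as LPS over untreated cells or as fld over control cells.

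Promoter windows are printed for Tlr2, Tlr3 and Tlr8, because these are 3 of the 4 genes called under LPS in control cells and the other, Tlr7, had no window in the table. They are RefSeq windows of GRCm38.p6 with 250 bases before and 50 after a transcript start, in the direction of transcription, with matches to 4 motifs in capitals. Tlr4 had none either. Each Tlr2 and Tlr3 match is an NF-kB-like motif (GGGA, any 4 bases, then CC), and the Tlr8 match is a PU.1 core, GAGGAA.
Tlr2, chr3:83841559-83841858, minus strand: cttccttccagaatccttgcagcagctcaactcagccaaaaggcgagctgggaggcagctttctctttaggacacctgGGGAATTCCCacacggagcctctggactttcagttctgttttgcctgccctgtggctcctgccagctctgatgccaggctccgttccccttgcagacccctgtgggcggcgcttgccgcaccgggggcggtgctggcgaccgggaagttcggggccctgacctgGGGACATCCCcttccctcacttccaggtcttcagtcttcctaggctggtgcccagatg
Tlr3, chr8:45410331-45410630, minus strand: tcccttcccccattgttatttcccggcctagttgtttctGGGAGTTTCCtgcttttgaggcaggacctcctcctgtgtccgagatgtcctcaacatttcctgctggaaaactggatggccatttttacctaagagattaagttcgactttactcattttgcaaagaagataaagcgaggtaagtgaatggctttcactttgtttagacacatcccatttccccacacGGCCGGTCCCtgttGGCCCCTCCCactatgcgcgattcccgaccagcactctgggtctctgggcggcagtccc
Tlr8, chrX:167264280-167264579, minus strand: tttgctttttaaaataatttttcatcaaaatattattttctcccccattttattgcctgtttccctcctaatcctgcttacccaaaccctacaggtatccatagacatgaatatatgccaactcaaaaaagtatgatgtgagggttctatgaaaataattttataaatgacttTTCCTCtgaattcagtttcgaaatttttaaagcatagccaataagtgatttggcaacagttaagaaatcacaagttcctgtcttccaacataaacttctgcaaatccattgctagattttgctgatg

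The motifs were searched on both strands, with overlapping matches to the same bases counted once, and the other motifs sought were an interferon response element (GAAA, any 2 bases, then GAAA) and an AP-1 site (TGANTCA). The Tlr2 window held NF-kB-like matches at -172 and -8 from the start site, and the Tlr3 window held them at -211, -23 and -9. The Tlr8 window held 1 match, a PU.1 core at -77. Of 32851 RefSeq promoter windows of this length, 20.7% held the NF-kB-like motif, 28.3% the PU.1 core, 7.81% the AP-1 motif and 3.44% the interferon response element. Among the other members with a window, Tlr5 had 1 NF-kB-like match, Tlr9 had 2 PU.1 cores and 1 AP-1 match, Tlr1 and Tlr13 had 1 PU.1 core each, and Tlr6 had 2 overlapping matches to the interferon response element. These matches describe the letters of the windows and no binding was measured.

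The first comparison asked how LPS changed each receptor's transcript. In control cells Tlr2 rose and Tlr3, Tlr7 and Tlr8 fell, which is 4 of 9 measured members called against 30.0% of all features (14.8% higher and 15.2% lower). In cells labelled fld Tlr3, Tlr7 and Tlr8 fell, 3 of 9 against 40.1% of all features (21.9% higher and 18.2% lower), and Tlr2 did not pass the test. Of the called members, Tlr3 and Tlr8 passed the filter only through their untreated groups. The LPS groups did not overlap the untreated groups for the same 4 genes in control cells and the same 3 in cells labelled fld, against 32.8% and 37.2% of all features. The median change of the 9 members was -0.12 in cells labelled fld, where that of all features was 0.06, and -0.07 in control cells, where that of all features was 0.03. The treatment itself was visible in the cytokine Il6, which rose by 3.26 in cells labelled fld and 5.06 in control cells on the log2 scale (limma, adjusted p = 0.00029 and 7.1e-06).

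**Figure D1:**
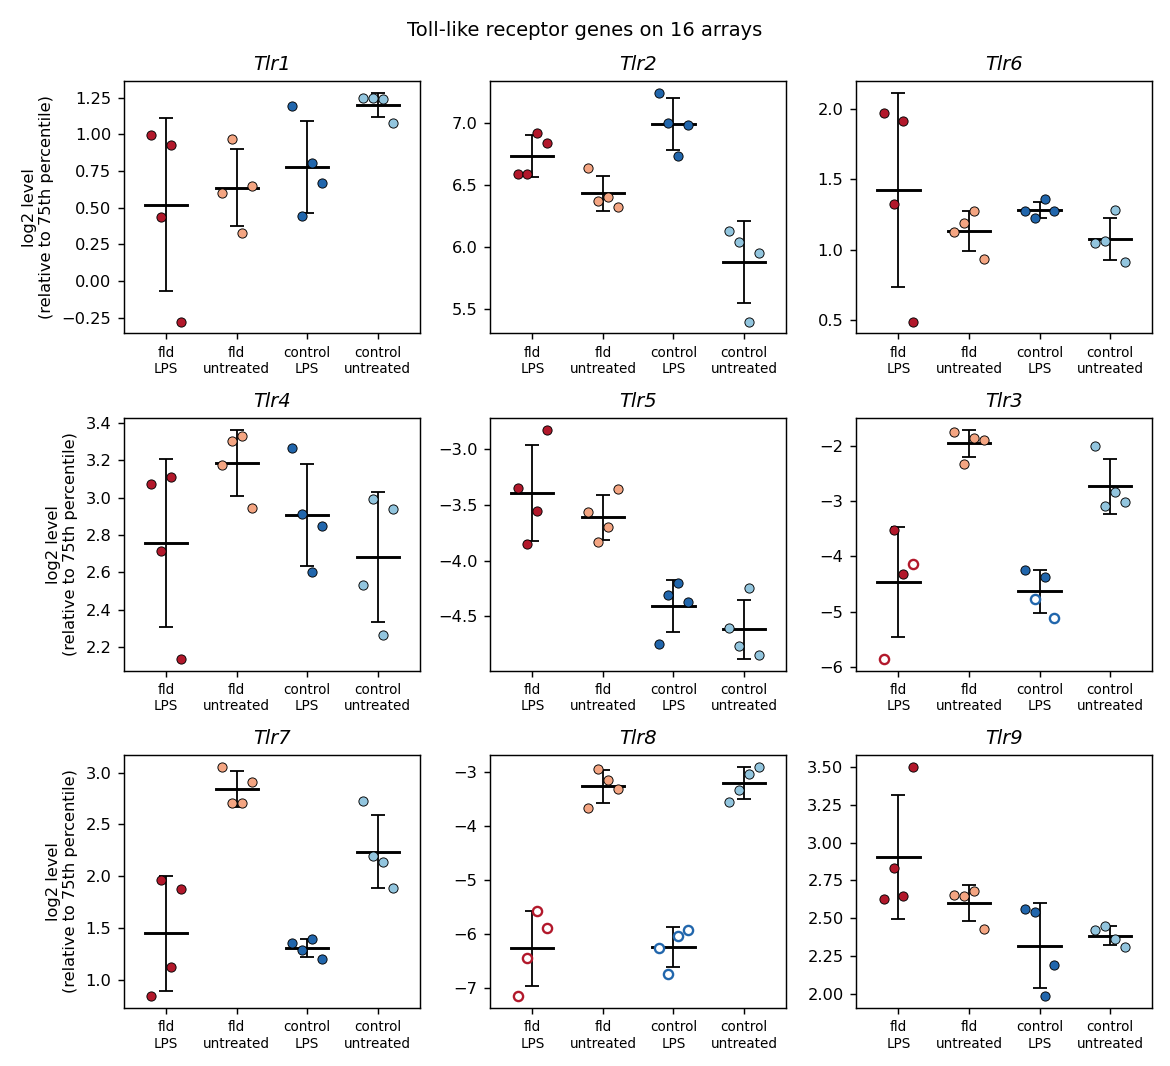
Level of each measured Toll-like receptor gene on the 16 arrays, as log2 relative to the array's 75th percentile (y axis, a separate scale per gene), by group (x axis). Points are arrays, open where the probe was not well above background, the thick line is the mean and the bars are the SD of 4 arrays. Tlr8 is open on all 8 LPS arrays, and Tlr5 lies higher on every array labelled fld than on any control array.

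Tlr2 recognises bacterial lipoproteins as a pair with Tlr1 or Tlr6. In control cells Tlr2 lay at 7.24, 7.0, 6.73 and 6.98 with LPS, against 6.13, 6.04, 5.40 and 5.95 untreated. Every control LPS array lay above every untreated control array. The rise was 1.11 on the log2 scale (SE 0.16, 2.16-fold, limma adjusted p = 9.5e-05). Cells labelled fld gave Tlr2 levels of 6.59, 6.59, 6.92 and 6.84 with LPS, against 6.64, 6.37, 6.40 and 6.32 untreated. Here the groups overlapped, because untreated replicate 1 lay above 2 of the LPS arrays, and the change of 0.30 (95% interval -0.04 to 0.63) missed the threshold in limma (adjusted p = 0.14). The difference between the responses, -0.81 (95% interval -1.28 to -0.34), had an unadjusted p of 0.0024 and an adjusted p of 0.25 in limma, so it was not called. The Tlr2 probe was printed as 10 spots per array, whose SD within an array had a median of 0.04.

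Tlr1, the partner for triacylated lipopeptides, was not called under LPS in either genotype. It lay at 1.0, 0.44, 0.93 and -0.28 with LPS in cells labelled fld, against 0.60, 0.97, 0.33 and 0.65 untreated. Its control levels were 1.19, 0.44, 0.80 and 0.67 with LPS, against 1.25, 1.24, 1.24 and 1.08 untreated. Both pairs of groups overlapped, and the changes were -0.12 (adjusted p = 0.73) and -0.43 (adjusted p = 0.20) in limma. The lowest array labelled fld, replicate 4 with LPS, stood apart from its group.

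Tlr6, the partner for diacylated lipopeptides, lay at 1.98, 1.32, 1.92 and 0.49 with LPS in cells labelled fld, against 1.13, 1.19, 1.28 and 0.94 untreated. The first 3 of these LPS arrays lay above every untreated array, and replicate 4 lay below them all. Its change was 0.29 (limma, adjusted p = 0.35), and without both arrays labelled fld replicate 4 it was 0.54 and called (adjusted p = 0.019). In control cells Tlr6 lay at 1.28, 1.23, 1.36 and 1.27 with LPS, against 1.05, 1.06, 1.28 and 0.91 untreated. The control groups overlapped, and the change of 0.21 missed the threshold (limma, adjusted p = 0.56).

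Tlr4, the receptor that LPS engages together with Ly96 and Cd14, did not pass the test under LPS. It lay at 3.07, 2.71, 3.11 and 2.14 with LPS in cells labelled fld, against 3.17, 3.30, 3.33 and 2.94 untreated. Control cells had 3.27, 2.91, 2.60 and 2.85 with LPS, against 2.53, 2.99, 2.26 and 2.94 untreated. Groups overlapped in both genotypes, and the changes were -0.43 (95% interval -0.90 to 0.04, limma adjusted p = 0.13) and 0.23 (95% interval -0.24 to 0.69, limma adjusted p = 0.48). The probe had 10 spots per array, with a median SD of 0.05 within an array. A second Tlr4 probe, 86.8 kb away in the coordinates of the scanner files, stood above background on none of the 16 arrays.

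Tlr5 binds bacterial flagellin. Its changes under LPS were 0.22 in cells labelled fld (limma, adjusted p = 0.41) and 0.21 in control cells (limma, adjusted p = 0.47), and neither was called, although with a normexp background the change in cells labelled fld was 0.43 and called (adjusted p = 0.032). Its levels differed between the genotypes and are given with that comparison.

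**Figure D2:**
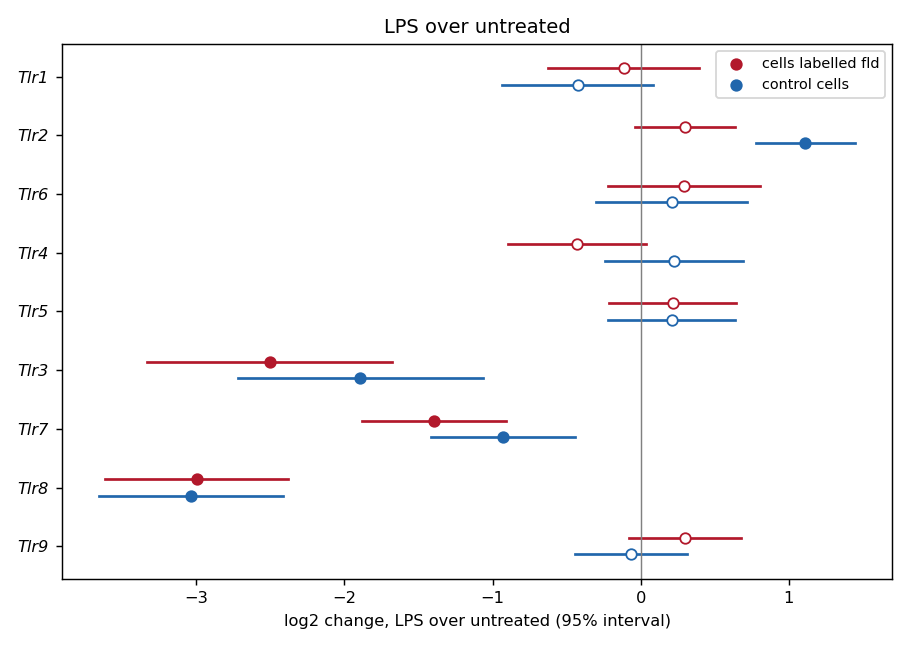
Log2 change of each Toll-like receptor gene, LPS over untreated (x axis), in cells labelled fld and in control cells, with 95% intervals from limma. Filled points passed an adjusted p of 0.05 over all features. Tlr3, Tlr7 and Tlr8 lie below 0 in both genotypes, and Tlr2 is filled above 0 in control cells only, a difference between genotypes that was not called. The Tlr8 points are fitted values of a transcript that was not well above background with LPS. Tlr3 was well above background on 2 of 4 LPS arrays in each genotype.

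Among the endosomal receptors, Tlr3 binds double-stranded RNA. Cells labelled fld had Tlr3 at -5.86, -3.53, -4.32 and -4.14 with LPS, against -1.75, -2.32, -1.87 and -1.89 untreated. Control cells had it at -4.25, -4.77, -4.38 and -5.10 with LPS, against -2.0, -3.09, -2.83 and -3.02 untreated. Every LPS array lay below every untreated array of its genotype. The probe was well above background on all untreated arrays and on 2 of 4 LPS arrays in each genotype. Tlr3 fell by 2.51 in cells labelled fld (SE 0.39, limma adjusted p = 0.00019) and fell by 1.89 in control cells (SE 0.39, limma adjusted p = 0.0018) on the log2 scale. A second Tlr3 probe, 280 bases away, was well above background on all untreated arrays but on 1 of 4 LPS arrays in each genotype, with fitted changes of -2.66 and -2.07 in the same comparisons (limma over 25534 probes, adjusted p = 2.2e-05 and 0.00021). With a normexp background the falls stayed called but were smaller, at -0.70 in cells labelled fld and -0.62 in control cells. Both Tlr3 probes passed the filter only through untreated groups, and their fitted falls rest in part on LPS signals near background.

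Tlr7, a receptor for single-stranded RNA, was well above background on all 16 arrays. It lay at 0.84, 1.96, 1.12 and 1.88 with LPS in cells labelled fld, against 3.06, 2.70, 2.71 and 2.91 untreated. Tlr7 in control cells lay at 1.36, 1.29, 1.39 and 1.20 with LPS, against 2.73, 2.20, 2.13 and 1.89 untreated. All LPS arrays lay below all untreated arrays of their genotype. The fall was 2.63-fold in cells labelled fld (log2 change -1.39, SE 0.23, limma adjusted p = 0.00030) and 1.90-fold in control cells (log2 change -0.93, SE 0.23, limma adjusted p = 0.0063). The falls differed by -0.47 (95% interval -1.15 to 0.22), which was not called (limma, adjusted p = 0.70).

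Tlr8, known in humans as a receptor for single-stranded RNA, was well above background on every untreated array and on no LPS array. Its levels were -7.16, -6.45, -5.58 and -5.89 with LPS in cells labelled fld, against -3.66, -2.96, -3.15 and -3.32 untreated. The control arrays gave -6.27, -6.75, -6.03 and -5.92 with LPS, against -3.56, -3.33, -3.03 and -2.91 untreated. In the processed signal used here it was at least 2.32-fold lower with LPS in cells labelled fld and at least 3.50-fold lower in control cells. The fitted changes of -3.00 and -3.03 (limma, adjusted p = 3.0e-06 and 3.1e-06) rest on LPS signals near background, and these p-values do not belong to the bounds. Tlr8, like Tlr3, passed the filter only through its untreated groups. Each bound sets the untreated mean against a floor on the LPS arrays, namely the dimmest signal that still stood well above background on that array, or the probe's own where that was higher. With a normexp background the fitted change in cells labelled fld was -0.12 and no longer called (adjusted p = 0.53), and that in control cells was -0.69 and called (adjusted p = 0.0032).

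Tlr9 binds DNA with unmethylated CpG. It lay at 2.63, 2.83, 2.65 and 3.50 with LPS in cells labelled fld, against 2.65, 2.65, 2.68 and 2.43 untreated. In control cells it lay at 2.56, 2.54, 1.99 and 2.19 with LPS, against 2.42, 2.45, 2.36 and 2.31 untreated. The LPS and untreated arrays overlapped in both genotypes, and the changes of 0.30 and -0.07 were not called (limma, adjusted p = 0.18 and 0.82). Tlr9 thus did not pass the test where the other 3 measured endosomal receptors fell, and no test of that contrast between genes was made.

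In bulk RNA, fewer cells of a type and less RNA per cell cannot be told apart. The summed signal of 6 B cell markers, in multiples of the 75th percentile, was 67.3 to 96.4 with LPS in cells labelled fld, against 107 to 154 untreated. In control cells it was 92.9 to 103 with LPS, against 106 to 182 untreated, so it was lower with LPS, without overlap, as Tlr3, Tlr7 and Tlr8 were. Of the 6 markers, Cd79b and Fcmr fell in both genotypes and the other 4 did not pass the test, and Cd79b in cells labelled fld was not called without both replicate 4 arrays (-0.56, limma adjusted p = 0.092). The sum of 4 measured neutrophil markers was 19.1 to 26.8 with LPS in cells labelled fld, against 1.28 to 1.63 untreated, and 9.14 to 15.9 in control cells with LPS, against 1.25 to 2.30 untreated. Most of each sum came from S100a8, at 4.43 with LPS against -0.06 untreated in cells labelled fld. In control cells S100a8 lay at 3.68 with LPS, against 0.22 untreated. In both genotypes S100a8 and Camp rose and the other 2, S100a9 and Mpo, did not pass the test. In control cells these 2 lay lower with LPS, at -3.75 against -2.36 and -2.85 against -2.82. In cells labelled fld they lay higher with LPS, at -1.45 against -2.22 and -2.0 against -2.35. The macrophage marker list had a median change of -1.05 in cells labelled fld (-0.51 without both replicate 4 arrays) and -0.65 in control cells. Of its 9 genes, Csf1r (-2.43), Timd4 (-2.34), Adgre1 (-1.49) and Cd68 (-1.05) fell in cells labelled fld. In control cells Csf1r (-1.71) and Cd68 (-0.96) fell and Icam2 (0.99) rose. Without both arrays labelled fld replicate 4, Adgre1 (-0.65, limma adjusted p = 0.025) and Timd4 (-1.28, limma adjusted p = 0.018) were also called lower in control cells. Icam2 was then called higher in cells labelled fld (0.60, limma adjusted p = 0.035). The summed signal of this list overlapped between LPS and untreated arrays in both genotypes, but most of it came from Lyz2, whose changes of 0.30 in cells labelled fld and 0.14 in control cells were not called. The sum of 6 mast cell markers was 44 to 131 with LPS in cells labelled fld, against 33.7 to 124 untreated. In control cells the mast cell sum was 67.1 to 131 with LPS, against 15.4 to 82.4 untreated. These sums overlapped in both genotypes, and none of the 6 markers passed the test. The part of these and other cells in the receptor changes was not tested.

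The second comparison asked whether the genotype label went with receptor levels. Without LPS, Tlr5 alone of the 9 members was called, and it was higher in cells labelled fld, against 5.26% of all features called. With LPS, Tlr5 and Tlr9 were called, both higher in cells labelled fld, which is 2 of 9 against 17.1% of all features. Arrays did not overlap between the genotypes for 3 members without LPS (Tlr1, Tlr2 and Tlr5) and for 2 with LPS (Tlr5 and Tlr9), against 15.3% and 19.9% of all features. The median difference of the 9 members was 0.50 without LPS and 0.14 with LPS, where that of all features was 0.06 and 0.02. Calls among all features ran mostly one way, with 16.2% higher and 0.899% lower in cells labelled fld with LPS, and 5.03% higher and 0.223% lower without.

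**Figure D3:**
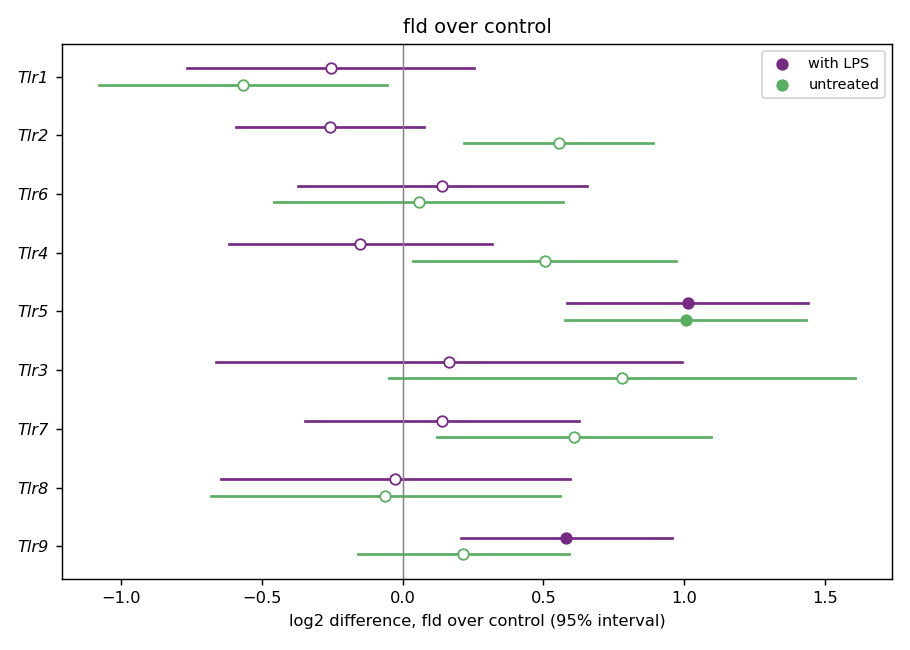
Log2 difference of each Toll-like receptor gene, fld over control (x axis), with LPS and untreated, with 95% intervals from limma. Filled points passed an adjusted p of 0.05 over all features. Tlr5 is filled at 1.01 under both conditions, and Tlr9 is filled with LPS at 0.58.

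Tlr5 was low but well above background on all 16 arrays. Its only probe, 1 spot per array, was named by symbol. The probe standing for each other measured member was named by accession. With LPS Tlr5 lay at -3.35, -3.85, -3.55 and -2.83 in cells labelled fld, against -4.74, -4.31, -4.20 and -4.37 in control cells. Untreated, it lay at -3.56, -3.83, -3.70 and -3.36 in cells labelled fld, against -4.60, -4.77, -4.25 and -4.85 in control cells. All 8 arrays labelled fld, replicate 4 included, lay above all 8 control arrays. The difference was 1.01 with LPS (SE 0.20, 2.02-fold, limma adjusted p = 0.0025) and 1.01 untreated (SE 0.20, 2.01-fold, limma adjusted p = 0.011). Without both replicate 4 arrays it was 0.82 and 0.92, and both stayed called (adjusted p = 0.0065 and 0.0097). The call without LPS was lost with a normexp background (0.34, adjusted p = 0.41) and the call with LPS was lost with quantile normalization (0.56, adjusted p = 0.065).

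Many dim features shifted the same way between the genotypes. When all features were ranked by mean level and divided into 5 classes of 3493, the dimmest class held Tlr3, Tlr5 and Tlr8. In that class 39.7% of features were called higher in cells labelled fld with LPS, with a median difference of 0.65, and 14.8% untreated, with a median of 0.35. Without both replicate 4 arrays labelled fld these shares were 31.2% and 16.8%, with medians of 0.49 and 0.32. In the brightest class, which held Tlr2, Tlr4 and Tlr9, 0.372% were called higher with LPS and 0.744% untreated, or 0.429% and 1.46% without those arrays. The part of this shift in the Tlr5 difference was not tested. Tlr3, in the same class, differed by 0.17 with LPS and 0.78 untreated, and Tlr8 by -0.06 untreated, none of them called. Tlr8 with LPS was not well above background in either genotype.

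Markers of other cells also differed with the genotype label. The neutrophil sum with LPS was 19.1 to 26.8 in cells labelled fld, against 9.14 to 15.9 in control cells. Most of it came from S100a8, at 4.43 in cells labelled fld and 3.68 in control cells. S100a8, S100a9 (-1.45 against -3.75) and Mpo (-2.0 against -2.85) were called higher, 3 of 4 against 16.2% of all features. Camp lay lower in cells labelled fld, at -1.51 against -1.11, and was not called. Without both replicate 4 arrays labelled fld 2 of 4 were called higher, and S100a8 was not (0.83, limma adjusted p = 0.053). The B cell marker Fcmr was lower in cells labelled fld with LPS. The sums of B cell markers overlapped between genotypes under both conditions, and the part of these cells in the receptor differences was not tested.

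**Figure D4:**
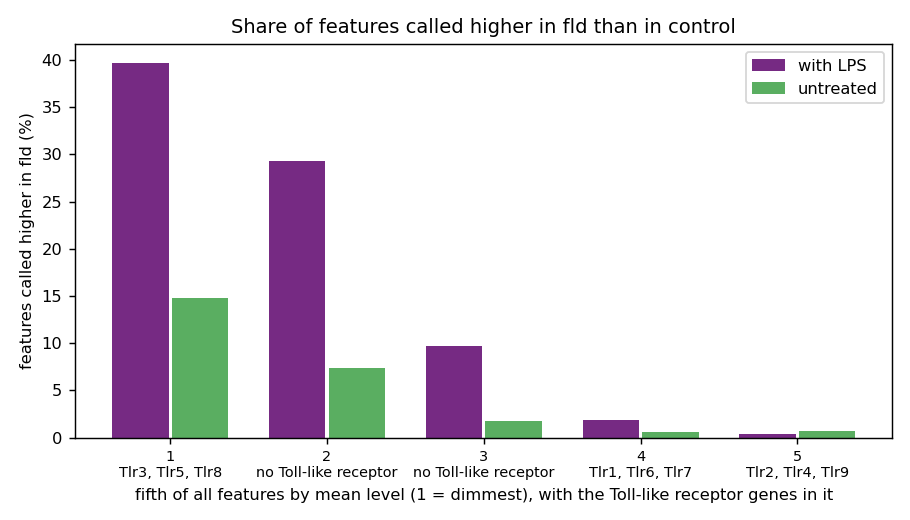
Share of features called higher in cells labelled fld than in control cells (y axis, percent), by class of mean level from dimmest to brightest (x axis, 5 classes of 3493 features, with the Toll-like receptor genes each holds). The bars fall to 0.372% with LPS in the brightest class, where Tlr9 lies, while the dimmest class, where Tlr5 lies, reaches 39.7%.

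Tlr9 averaged 2.90 ± 0.41 in cells labelled fld and 2.32 ± 0.28 in control cells with LPS (SD, n = 4 each). The lowest array labelled fld, at 2.63, lay just above the highest control array, at 2.56, and replicate 4 labelled fld lay highest, at 3.50. The difference was 0.58 (SE 0.18, 1.5-fold, limma adjusted p = 0.032). Without fld LPS replicate 4, alone or with its untreated counterpart, it was 0.38 and not called (adjusted p = 0.079). It was also lost without fld LPS replicate 2 (0.60, adjusted p = 0.053), control LPS replicate 3 (0.47, adjusted p = 0.12) or control LPS replicate 4 (0.54, adjusted p = 0.091). Without LPS the difference was 0.22 (limma, adjusted p = 0.58).

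Tlr2 without LPS lay higher on every array labelled fld, at 6.32 to 6.64, than on any control array, at 5.40 to 6.13. The difference of 0.55 (95% interval 0.22 to 0.89) just missed the threshold (limma, adjusted p = 0.055). It passed when control untreated replicate 1, control LPS replicate 3 or fld LPS replicate 4 was left out (adjusted p = 0.039, 0.044 and 0.042). Tlr1 without LPS lay lower on every array labelled fld, at 0.33 to 0.97, than on any control array, at 1.08 to 1.25, with a difference of -0.57 (95% interval -1.08 to -0.06, limma adjusted p = 0.21). The untreated differences of Tlr4 (0.50, 95% interval 0.04 to 0.97) and Tlr7 (0.61, 95% interval 0.12 to 1.09) were not called (limma, adjusted p = 0.23 and 0.15). For Tlr6 the differences were 0.14 with LPS and 0.06 untreated, with neither called (limma, adjusted p = 0.78 and 0.94).

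No member's response to LPS was called different between the genotypes. The test of that difference called 0 of 17465 features in limma, with 1649 at an unadjusted p under 0.05, which is 9.44%. Of all features, 14 were called with quantile normalization and 7 in the authors' deposited value table, with no Toll-like receptor gene among them. The responses of Tlr4 differed by -0.65 (95% interval -1.31 to 0.01, limma adjusted p = 0.53).

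Counts of genes around the receptors are read against all features, of which 21.9% rose and 18.2% fell in cells labelled fld, and 14.8% rose and 15.2% fell in control cells. Of 6 measured coreceptors and receptor-like partners in control cells, 1 rose and 2 fell, 3 of 6 called against 30.0% of all features: Cd14, which hands LPS to the receptor, rose by 1.33 (SE 0.14), the scavenger receptor Cd36 fell by 1.54 (SE 0.20) and the Toll-like Cd180 fell by 1.13 (SE 0.21). In cells labelled fld 2 rose and 3 fell, 5 of 6 called against 40.1%, with changes of 1.01, -1.07 and -1.26 for the same genes, all called. The second that rose, Ly96, was not called without both replicate 4 arrays labelled fld (0.58, limma adjusted p = 0.066). The list's median was -0.41 in cells labelled fld (-0.12 without those arrays) and -0.19 in control cells.

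Of 17 measured adaptors, kinases and ligases, 5 rose and 2 fell in cells labelled fld, 7 of 17 against 40.1% of all features. In control cells 7 rose and 2 fell, 9 of 17 against 30.0%. The list's medians were 0.06 in cells labelled fld (0.13 without both replicate 4 arrays) and 0.37 in control cells. Irak3, a kinase-like brake on the pathway, changed by 1.01 in cells labelled fld and 1.39 in control cells, both called. Myd88 lay at 4.71 ± 0.26 with LPS in cells labelled fld, against 4.66 ± 0.19 untreated, a change of 0.06 that was not called (limma, adjusted p = 0.77). In control cells it lay at 5.06 ± 0.15 with LPS, against 4.23 ± 0.15 untreated (SD, n = 4 each), a rise of 0.83 (limma, adjusted p = 0.00042). The difference between those responses was not called. Ticam2, the adaptor that bridges Tlr4 to Ticam1, fell in both genotypes. In cells labelled fld it was well above background on every untreated array and on no LPS array, and in control cells it changed by -1.50, a call lost with a normexp background (adjusted p = 0.12). Irak1, a kinase downstream of Myd88, changed by -0.36 in cells labelled fld and -0.34 in control cells, both called.

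The next list held 11 chaperones, trafficking proteins and proteases of Toll-like receptors, not of the endosomal ones alone. In cells labelled fld none rose, 6 fell and 5 did not pass the test, where 18.2% of all features fell. In control cells 1 rose and 7 fell, where 15.2% of all features fell. The list's medians were -0.56 in cells labelled fld and -0.61 in control cells, where all features had 0.06 and 0.03. Unc93b1, which escorts endosomal receptors out of the endoplasmic reticulum, lay at 3.80 ± 0.26 with LPS in cells labelled fld, against 5.35 ± 0.23 untreated, and at 4.23 ± 0.23 with LPS in control cells, against 5.40 ± 0.30 untreated (SD, n = 4 each). It fell by 1.55 in cells labelled fld (limma, adjusted p = 1.3e-05) and fell by 1.16 in control cells (limma, adjusted p = 0.00018). Lgmn, a protease that cleaves endosomal receptors, changed by -1.56 in cells labelled fld and -1.72 in control cells, both called. Lnpep, an aminopeptidase of endosomes, changed by 0.11 in cells labelled fld, not called, and 0.33 in control cells, called (limma, adjusted p = 0.024). The Lnpep call in control cells was lost in the authors' deposited value table, without the filter, with only the groups compared, with a block within genotype, and without control LPS replicate 4 or control untreated replicate 2, 3 or 4, at adjusted p of 0.054 to 0.12. The mean of its kept probes turned to -0.16 (adjusted p = 0.12).

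**Figure D5:**
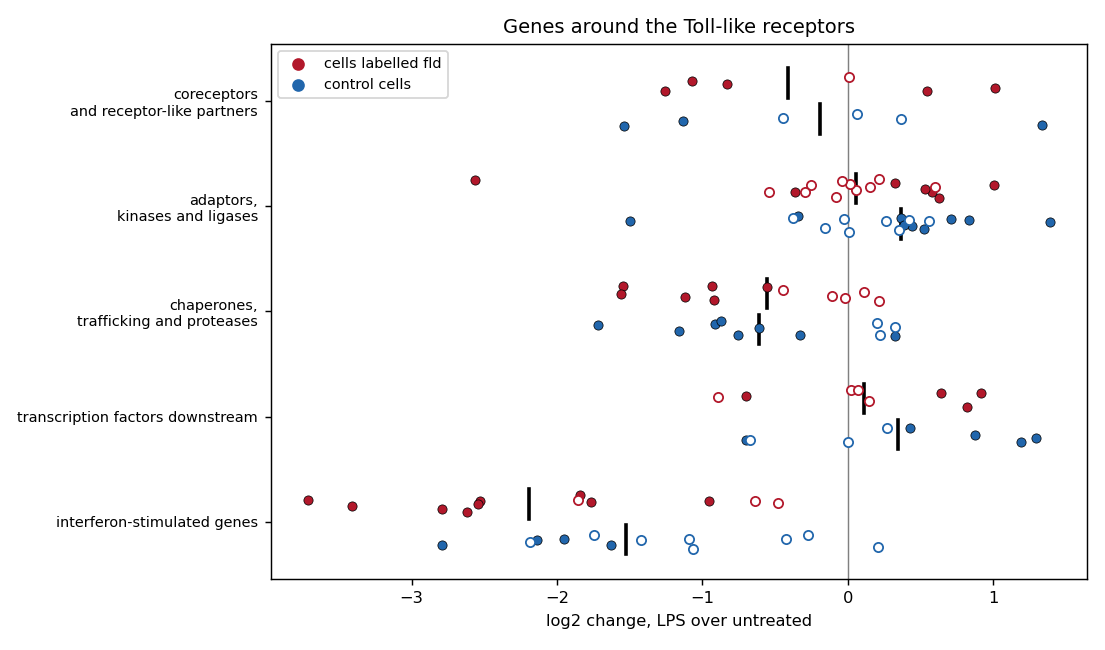
Log2 change, LPS over untreated (x axis), of the measured genes of 5 lists around the Toll-like receptors, with cells labelled fld above control cells in each list. Filled points passed an adjusted p of 0.05 in limma, and the bar is the list's median. The chaperone and protease list and the interferon-stimulated list have medians below 0 in both genotypes, down to -2.19.

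Of 8 transcription factors downstream, 3 rose and 1 fell in cells labelled fld, 4 of 8 against 40.1% of all features, and 4 rose and 1 fell in control cells, 5 of 8 against 30.0%. The NF-kB genes Nfkb2 and Nfkb1 rose by 0.91 and 0.64 in cells labelled fld and 1.3 and 1.19 in control cells, and Irf5, which acts downstream of endosomal receptors, changed by -0.70 in both, called in both. Of 12 interferon-stimulated genes none rose, 9 fell in cells labelled fld, where 18.2% of all features fell, and 4 fell in control cells, where 15.2% did. Their medians were -2.19 in cells labelled fld and -1.53 in control cells. Among them Ifit2 and Ifit3, which act against viral RNA, fell by 3.71 and 2.79 in cells labelled fld and fell by 2.79 and 2.14 in control cells. The difference between genotypes was called for none of the 12, whose median difference of responses was -0.70. The summed signal of these 12 genes spread widely among replicates, at 70.3 to 295 with LPS in cells labelled fld, against 286 to 548 untreated, and at 91.2 to 161 with LPS in control cells, against 136 to 474 untreated. Between genotypes these 5 lists held few calls. Irak2 and Nfkb1 were higher in untreated cells labelled fld (0.67 and 0.39, limma adjusted p = 0.048 and 0.037) and Ticam2 was lower in cells labelled fld with LPS, where it was not well above background (limma, adjusted p = 0.015). Without both replicate 4 arrays Irak2 was not called (0.70, limma adjusted p = 0.053), and Myd88 was called higher in untreated cells labelled fld (0.48, limma adjusted p = 0.036). These genotype results were picked out after their values were seen.

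For each called receptor gene, the named genes with the most similar profile were found by the root mean square difference over the 16 arrays after each gene's mean was removed. For Tlr2 they were Skil and Clic4, at 0.19 and 0.20 log2 units. For Tlr7 they were Tor3a and Il18, at 0.16 and 0.17, for Tlr3 Gbp6 and Ly6e, at 0.38 and 0.40, and for Tlr8 Tmem86a and Gsdme, at 0.49 each. For Tlr5 they were Pcdhb21 and Wnt1, at 0.22 and 0.23, and for Tlr9 Frs3 and Dlgap2, at 0.09 each. These arrays share labels and slides, so the likeness describes the 16 arrays and carries no p.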

How the data were processed

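RNA of 16 samples in 4 groups was measured on single-colour Agilent arrays (design 014868). Per the file headers, the deposited scanner files hold intensity values read by Feature Extraction 9.5.1.1, and the processed signal used here was background-subtracted by the authors' scanner software. The deposited value table of the series holds linear ratio values, which were found to be the processed signal divided by each array's median over spots that are not controls, with no centring by gene. Its scale and direction are thus known, and it served as an alternative.

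Here log2 of the processed signal minus each array's 75th percentile was used. Control spots were left out, flagged spots (0.208% of values) were set to missing, and spots of a probe were averaged. Of 41174 probes, 25534 stood well above background throughout some group of 4 arrays and were kept. The brightest kept probe stood for a gene, which left 17465 features, 14069 with a symbol. Names came from accessions through RefSeq (22951 probes), from symbols (6659), synonyms (3109) or the files alone (8455). The build of the probe coordinates is not stated in the scanner files or labels used here. Spots well above background made up 58.7% to 65.4% per array, replicates correlated at 0.961 to 0.993, and the number of arrays limits the precision.

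Tests used limma 3.58.1 under R 4.3.3 (1 mean per group, all 16 arrays, two-sided, Benjamini-Hochberg within each of 5 comparisons), tested on simulated data. All fold changes and adjusted p-values are from that fit unless another setting is named. Alternatives changed the background correction, normalization, filter, choice of probe, samples in the fit and replicate block. The named genes are the members, up to 2 likest genes per called member and, per pathway list, up to 2 highest and 2 lowest changes called in control cells. The members, lists and rules were chosen with earlier results of these data known. The promoter windows are from RefSeq.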

Additional observations from a re-analysis of the deposited data

Results flagged for a closer look

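On 2 of 44 probe-and-group sets of 4 arrays, the gap between the outermost array and its nearest neighbour exceeded, as a share of the set's range, the 95% critical value of Dixon's test, and about 5% of sets are found by chance. Tlr1 on control untreated replicate 4 lay at 1.08, where the other arrays of its group lay between 1.24 and 1.25. Tlr9 on fld untreated replicate 4 lay at 2.43, where the rest lay between 2.65 and 2.68. This second array is one of the pair labelled fld replicate 4 on which 3 Lpin1 probes lay within or above the control range. Neither gene was called in a comparison of untreated cells.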

How the results depend on the processing

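Of 1143 member values under 26 alternatives, 1123 kept their direction or had missed the threshold both times, 9 became called, 10 lost the call and 1 reversed. Among the 1123, 48 changed sign with both values missing the threshold. The falls of Tlr3 and Tlr7 in both genotypes, of Tlr8 in control cells and the rise of Tlr2 in control cells stayed called under every alternative run. With normexp, the count of members called between untreated genotypes was 0 in place of 1, and Tlr8 in cells labelled fld over control cells with LPS turned to 0.55 (adjusted p = 0.022), with both groups not well above background. That count was 2 when only the groups compared entered the fit (Tlr1 was added, adjusted p = 0.034), and 1 to 2 when 1 array was left out. Between genotypes with LPS, the count was 1 in place of 2 with quantile normalization, with only the groups compared and without both arrays labelled fld replicate 4, and 1 to 2 with 1 array left out. Under LPS it was 3 to 4 in cells labelled fld and 4 to 4 in control cells with 1 array left out. Lnpep in control cells turned to -0.16 with the mean of its kept probes. The causes were not tested.

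The authors' deposited value table, scaled to the median, moved the median of all features to -0.18 in cells labelled fld under LPS, -0.12 between untreated genotypes and -0.38 between genotypes with LPS. There 23.3% of calls between genotypes with LPS were higher, of 8640, against 94.7% of 2981 as reported, and 85.3% against 95.8% without LPS. In cells labelled fld under LPS 29.6% of calls were higher there, 67.2% with normexp and 65.2% without the filter, against 54.7% as reported. With quantile normalization the split between genotypes with LPS was 74.4%. In the value table Tlr9 between genotypes with LPS was 0.18 (adjusted p = 0.26), Tlr2 was -0.66 and called (adjusted p = 0.0080), and Tlr4 in cells labelled fld under LPS was -0.67 and called (adjusted p = 0.046). The count of all features called between untreated genotypes was 918, but 42 with normexp, 522 with quantile normalization, 1703 with only the groups compared and 355 to 1683 with 1 array left out.

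With the replicate number as a block, 3 members were called under LPS in cells labelled fld, 4 in control cells, 1 between untreated genotypes, 2 with LPS and 0 for the difference of responses, as without it. Of all features 1230 were called between untreated genotypes with the block. The numbers were not taken as pairs: deviations of same-numbered LPS and untreated arrays correlated at -0.10 to 0.20 in cells labelled fld and 0.08 to 0.26 in control cells. The same number correlated best for replicates 1, 3 and 4 of control cells and for replicate 4 of cells labelled fld. Both arrays labelled fld replicate 4 also shared the Lpin1 signal given above. Whether the numbers follow the mice was not tested. A block within genotype, chosen after seeing the data, changed no member count under LPS. Signal near background limits Tlr3, Tlr5 and Tlr8.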
